A study of Oryza sativa Japonica Group with 24 samples.

Results

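Terpene synthases cut and rearrange prenyl diphosphates into the carbon skeletons of terpenes. Described here are the 48 rice genes annotated as terpene synthases that lie outside the momilactone and phytocassane gene clusters. They were found by the words terpene synthase or terpenoid synthase in the gene description. That search returned 54 of the 57668 features measured, of which 6 genes of those clusters were set aside. No measured value entered the choice. Of the 48 genes, 40 were described by the metal-binding domain of the family, which holds the metal-dependent active site, and 8 by the N-terminal domain alone.

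Class II enzymes of the family, such as ent-copalyl diphosphate synthase, protonate and close geranylgeranyl diphosphate. Class I enzymes, such as kaurene synthase and the monoterpene and sesquiterpene synthases, instead remove the diphosphate at a metal centre. In rice the pair CPS1 and KS1 supplies ent-kaurene for the gibberellin hormones, related copies called kaurene synthase-like (KSL) enzymes serve specialised diterpenes including antimicrobial phytoalexins, and enzymes such as linalool synthase (LIS) make volatiles that leaves release after wounding or jasmonate. Of the 48 genes 6 carried a name in the RefSeq gene table: CPS1, KS1, KSL2, KSL3, KSL10 and LIS. The remaining genes are given by their locus names alone.

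RNA was sequenced from roots and from shoots of Japonica rice seedlings, in 8 groups of 3 libraries. A bHLH6 overexpressing line (bHLH6-OV), an spx4 T-DNA insertion mutant and wild type (WT) received 200 µM phosphate (Pi, high Pi), and further WT seedlings received 10 µM Pi (low Pi). Treatment ran for 2 weeks from an age of 7 days. Each library held tissue pooled from 3 seedlings and counts as 1 biological replicate per the labels, so p-values measure the spread between such pools, and which roots and shoots came from the same plants is not stated in the labels used here. The overexpressor is labelled as 1 genotype with no line numbers, the labels used here name no promoter, and the strain of all plants is labelled only as Japanese rice. Low Pi was applied to WT alone.

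Reads in genes numbered 21.0 to 29.6 M per library. The manipulated genes went with the labels: bHLH6 (LOC_Os04g23550) reached 134 ± 25.6 FPKM in roots of bHLH6-OV against 4.75 ± 1.32 in WT high Pi roots, and 105 ± 17.5 FPKM in shoots of bHLH6-OV against 5.24 ± 0.044 in WT high Pi shoots (SD, n = 3). SPX4 (LOC_Os03g61200) RNA was still present in spx4, at 6.21 ± 0.863 FPKM in spx4 roots and 11.3 ± 0.193 in WT high Pi roots (SD, n = 3). FPKM are fragments per kilobase of gene length, divided by a factor for each library, so levels of different genes in a library can be set side by side. That factor was 1.153 to 1.299 times the reads in genes in roots and 0.733 to 1.039 times in shoots. Root and shoot levels thus rest on unlike scaling. Among the WT low Pi shoots replicate 1 was unlike its 2 partners. Its counts differed from theirs by a chi-square of 122.2 and 137.3 per degree of freedom, the highest of all replicate pairs, and its 35 chlorophyll-binding and photosystem genes summed to 10202 FPKM, against 27435 and 30141 in replicates 2 and 3. The same marker sum was 360 to 469 FPKM in bHLH6-OV roots, 157 to 354 in spx4 roots, 27.5 to 55.6 in WT low Pi roots and 134 to 168 in WT high Pi roots. In shoots it was 18087 to 29442 in bHLH6-OV, 37955 to 44464 in spx4 and 31276 to 39333 in WT high Pi. A sum of 5 root marker genes was 3151 to 3793 FPKM in bHLH6-OV roots, 3502 to 4071 in spx4 roots, 3061 to 3494 in WT low Pi roots and 3926 to 4164 in WT high Pi roots. In shoots it was 13.0 to 23.0 in bHLH6-OV, 34.4 to 37.5 in spx4, 11.3 to 15.6 in WT low Pi and 28.1 to 31.9 in WT high Pi. Most of the shoot sum was the aquaporin-like gene LOC_Os02g51110, with means of 17.4, 34.1, 10.3 and 26.6 in that order. The root sum hid unlike moves in bHLH6-OV. There LOC_Os02g44310 averaged 1293 against 2247 for WT high Pi, but LOC_Os02g51110 1245 against 942 and LOC_Os03g01700 921 against 782. LOC_Os03g46470 and LOC_Os07g15370 had lower means. In limma 2 of the 5 were called lower there and 0 higher. The part of these marker shifts in the results below was not tested, and in bulk tissue fewer cells of a type and less RNA per cell cannot be told apart.

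The 48 genes lay on 10 chromosomes, with 17 on chromosome 4 and 9 on chromosome 3. In all 36 of them stood in 9 arrays of neighbours no more than 100 kb apart. The longest array held 13 genes over 481 kb of chromosome 4 (15943440 to 16424898, in the coordinates of the deposited table, whose build is not given in the sources used here). An array of 6 genes on chromosome 3 ran from 14032516 to 14110162. No read was found for 10 of the 48 genes in any of the 24 libraries, and 19 genes, these included, averaged under 0.1 FPKM in every group. Most of the family's RNA was read in shoots. Its FPKM summed to 1024 ± 69.1 in bHLH6-OV shoots, 487 ± 12.8 in spx4 shoots, 1251 ± 381 in WT low Pi shoots and 406 ± 76.5 in WT high Pi shoots (SD, n = 3). The roots summed to 43.2 ± 4.89 in bHLH6-OV, 39.9 ± 1.11 in spx4, 85.5 ± 5.51 in WT low Pi and 52.4 ± 6.10 in WT high Pi (SD, n = 3). The WT low Pi root sums lay above those of every other root library, and the bHLH6-OV and WT low Pi shoot sums lay above those of spx4 and WT high Pi shoots. The spread was widest in WT low Pi shoots, where replicate 3 summed to 812 FPKM and replicates 1 and 2 to 1449 and 1492.

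A gene was tested in a tissue where its mean over the 12 libraries reached 1 FPKM, and a gene with a limma adjusted p under 0.05 was called. The tests took in 10 of the 48 genes in roots and 13 in shoots, 19 genes in all, of which 4 were tested in both tissues. Genes that reach that mean only through the group where they are high had to differ, so the counts below describe the tested genes and not the whole family. In WT at high Pi LOC_Os03g22634, LOC_Os04g27340, LOC_Os04g27790 and KSL10 in shoots, and KSL2 and KS1 in roots, averaged under 1 FPKM and passed through other groups. In shoots LOC_Os04g27190 passed only with WT high Pi counted, the group where it was highest. The WT high Pi libraries serve all 3 comparisons of a tissue. In bHLH6-OV roots 0 of 10 were higher and 1 lower, where 18.0% of all genes tested were called, 7.62% higher and 10.4% lower. In spx4 roots 0 were higher and 1 lower, against 2.46% of all genes, 0.634% higher and 1.82% lower. In WT low Pi roots 5 were higher and 0 lower, against 31.4% of all genes, 15.3% higher and 16.1% lower. At an unadjusted p under 0.05 in limma 1 gene was higher in bHLH6-OV roots, 0 were higher in spx4 roots and 1 was lower in WT low Pi roots. In bHLH6-OV shoots 5 of 13 were higher and 1 lower, against 31.3% of all genes, 14.0% higher and 17.3% lower. In spx4 shoots 0 were higher and 1 lower, against 2.14% of all genes, 0.725% higher and 1.42% lower, and 1 was higher at an unadjusted p under 0.05 in limma. In WT low Pi shoots 8 were higher and 2 lower, against 48.2% of all genes, 22.2% higher and 26.0% lower. The members' share of calls lay below that of all genes in bHLH6-OV roots and above it in the other 5 comparisons, which with 10 or 13 genes is a description only. The spx4 calls in roots and in shoots both lay in the first 20 Mb of chromosome 4. There 14.9% of all genes tested were called in spx4 roots and 12.4% in spx4 shoots. The bHLH6-OV effect itself differed between roots and shoots for 6 of the 16 genes tested over all 24 libraries, against 29.4% of all genes, with 1 more positive in roots (15.1% of all genes) and 5 more positive in shoots (14.3%). For spx4 2 differed, against 1.83% of all genes, 1 each way (0.748% and 1.08%). For low Pi 10 differed, against 37.9% of all genes, 3 more positive in roots (18.6%) and 7 more positive in shoots (19.3%). Genes almost without reads in 1 tissue could move little there on the scale of log2(FPKM + 1). Their difference between tissues then largely repeats the effect in the other tissue. LOC_Os04g27070, almost without reads in shoots, had 0.77 both as its low Pi effect in roots and as the difference. The median log2 fold change of the tested members was -0.26, -0.15 and 0.54 in roots for bHLH6-OV, spx4 and low Pi, beside -0.021, -0.0016 and 0.0145 over all genes tested. In shoots it was 0.74, 0.23 and 1.16 in the same order, beside -0.0481, 0.0116 and -0.052 over all genes tested.

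**Figure D1:**
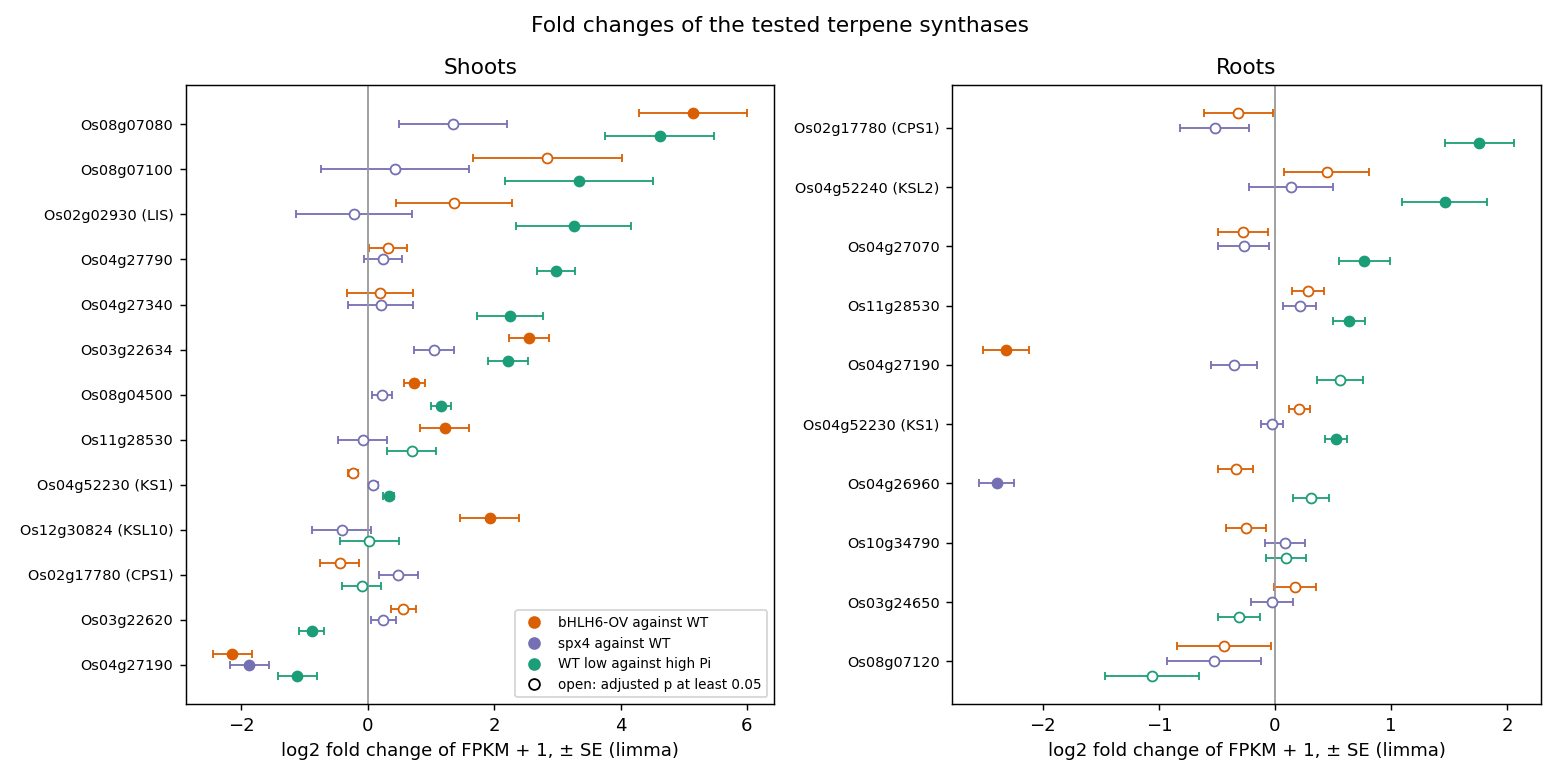
Log2 fold changes of FPKM + 1 with their standard errors (limma) for the 13 genes tested in shoots and the 10 tested in roots, against WT at high Pi. Filled points passed an adjusted p of 0.05, and most filled points at low Pi lie right of 0 while spx4 has 1 filled point in each tissue.

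Between roots and shoots of WT at high Pi 13 of 16 members tested over all 24 libraries differed, 6 higher and 7 lower in roots. That is near the share over all genes, of which 84.2% differed, 45.3% higher and 38.9% lower in roots. The leading shoot gene was LOC_Os08g04500 (chromosome 8, 2210021 to 2213896), a metal-binding domain gene. It read 0.0634, 0.19 and 0.123 FPKM in WT roots, against 325, 331 and 401 in WT shoots (log2 fold change -8.29 with SE 0.11, limma adjusted p = 2.99e-22). That is 2805-fold lower in roots by the ratio of means, and the WT root value of 0.190 FPKM, from 11 reads, was the highest of all 12 root libraries. The root means of LOC_Os08g07080, LIS and LOC_Os08g07100 were likewise 127-fold, 63.3-fold and 342-fold lower than their shoot means (log2 fold changes -3.11, -2.36 and -2.36, limma adjusted p = 0.000178, 0.00374 and 0.0186). The call of LOC_Os08g07100 ended without WT high Pi shoot replicate 3, which held the highest of its values, and when the WT high Pi roots and shoots were fitted alone. KS1 (LOC_Os04g52230) was 13.0-fold lower in roots, with 0.692, 0.693 and 0.872 FPKM in WT roots and 9.63, 10 and 9.74 in WT shoots (log2 fold change -2.63 with SE 0.08, limma adjusted p = 6.58e-17). KSL10 and LOC_Os03g22634 stood at 0.0087 ± 0.0075 and 0.0049 ± 0.0085 FPKM in WT roots, and at 0.891 ± 0.51 and 0.763 ± 0.191 in WT shoots (SD, n = 3). Both were called lower in roots (limma adjusted p = 0.0271 and 0.00454). The call of KSL10 ended without WT root replicate 1, 2 or 3 or WT shoot replicate 1.

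Root genes were lower in level and more even. The highest in WT roots was LOC_Os11g28530 (chromosome 11, 16435032 to 16449276), with 11.6, 14.4 and 14.7 FPKM in WT roots and 0.887, 1.6 and 2.29 in WT shoots (log2 fold change 2.52 with SE 0.31, limma adjusted p = 2.03e-07). LOC_Os04g27190 had 12.8, 10.3 and 9.57 FPKM in WT roots and 4.52, 3.17 and 2.83 in WT shoots (log2 fold change 1.41 with SE 0.27, limma adjusted p = 7.18e-05). LOC_Os04g26960 had 8.17, 11.4 and 12.7 FPKM in WT roots and no read in WT shoots, at least 374-fold higher against a floor of 3 reads over the 3 shoot libraries (log2 fold change 3.54 with SE 0.12, limma adjusted p = 2.39e-16). The WT root ranges of these 3 genes overlapped, so their order does not hold beyond the spread. LOC_Os08g07120 and LOC_Os04g27070 also had no read in WT shoots and stood at 4.47 ± 2.15 and 2.42 ± 0.517 FPKM in WT roots (SD, n = 3). Against the same floor they were at least 141-fold and at least 85.2-fold higher in roots (limma adjusted p = 5.57e-07 and 5.82e-09). LOC_Os10g34790 was 7.54-fold higher in roots (log2 fold change 1.30 with SE 0.21, limma adjusted p = 7.99e-06). CPS1 (LOC_Os02g17780) did not pass the test, with 2.98, 3.03 and 4.95 FPKM in WT roots and 3.82, 2.48 and 4.2 in WT shoots (log2 fold change 0.04 with SE 0.32, limma adjusted p = 0.905), and neither did LOC_Os04g27340 or LOC_Os04g27790, both under 0.4 FPKM on average in WT roots and shoots.

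**Figure D2:**
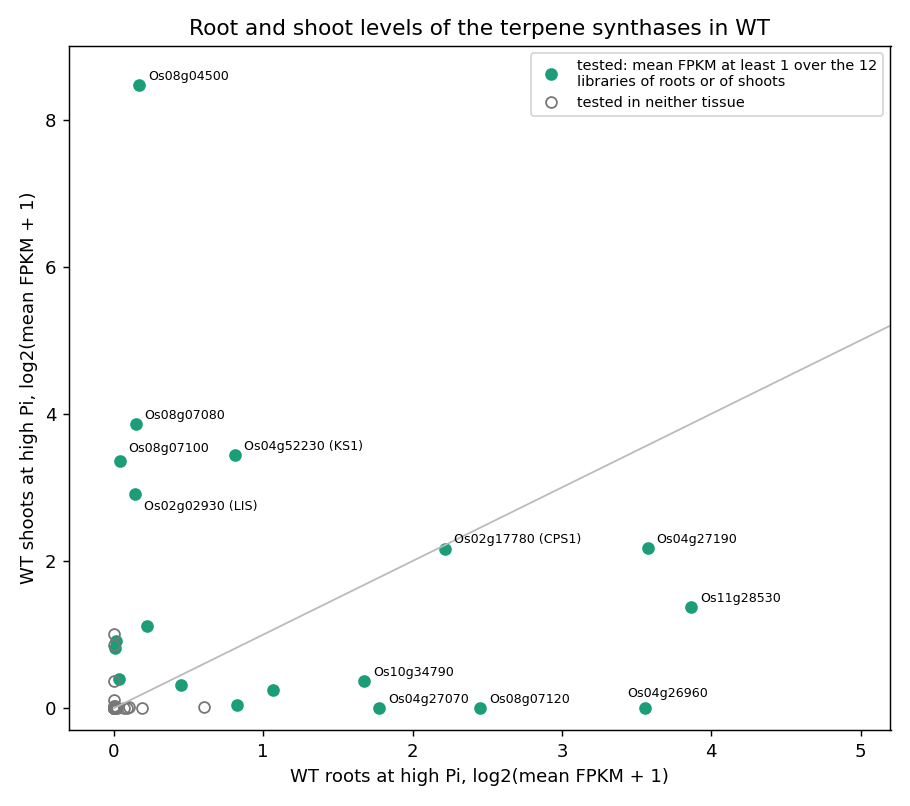
Mean level of the 48 genes in WT roots (x axis) and WT shoots (y axis) at high Pi, both as log2(mean FPKM + 1), with a line where the levels are equal. LOC_Os08g04500 stands alone at the top left, most labelled genes hug 1 axis, and CPS1 lies by the line.

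CPS1 and KS1 act in sequence on the way to gibberellin. CPS1 (LOC_Os02g17780, chromosome 2, 10273718 to 10283727) closes geranylgeranyl diphosphate to ent-copalyl diphosphate. In roots it read 2.26, 1.93 and 4.17 FPKM in bHLH6-OV roots, 1.78, 1.84 and 3.11 in spx4 roots, 18.2, 8.8 and 18.7 in WT low Pi roots and 2.98, 3.03 and 4.95 in WT high Pi roots. The WT low Pi roots lay above all other roots, 4.17-fold over WT high Pi by the ratio of means (log2 fold change 1.76 with SE 0.30, limma adjusted p = 0.00117). It was called in neither line in roots (limma adjusted p = 0.498 in bHLH6-OV and 0.515 in spx4). In shoots CPS1 read 1.86, 1.8 and 3.29 FPKM in bHLH6-OV shoots, 7.65, 4.34 and 4.18 in spx4 shoots, 1.58, 4.67 and 3.88 in WT low Pi shoots and 3.82, 2.48 and 4.2 in WT high Pi shoots. Each of the other shoot groups overlapped WT high Pi shoots and none was called, and the low Pi effect differed between tissues (root minus shoot 1.86 with SE 0.46, limma adjusted p = 0.00347).

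KS1 (LOC_Os04g52230, chromosome 4, 31026617 to 31031248) turns ent-copalyl diphosphate into ent-kaurene. Its shoot levels were 8.15, 7.51 and 9.02 FPKM in bHLH6-OV shoots, 11.4, 9.59 and 10.4 in spx4 shoots, 12, 12.9 and 12.8 in WT low Pi shoots and 9.63, 10 and 9.74 in WT high Pi shoots. WT low Pi shoots lay just above WT high Pi shoots in every library, 1.28-fold by the ratio of means (log2 fold change 0.33 with SE 0.08, limma adjusted p = 0.00637). bHLH6-OV shoots lay below them in every library without passing the test (log2 fold change -0.23 with SE 0.08, limma adjusted p = 0.0508). KS1 passed it with a pseudocount of 0.1 and when bHLH6-OV and WT were fitted alone. It also passed without bHLH6-OV shoot replicate 3 or WT low Pi shoot replicate 1. Over the 8 alternatives other than leaving out 1 library, the log2 fold change ran from -0.25 to -0.03, with limma adjusted p up to 0.87. In roots KS1 read 1.14, 0.893 and 1.05 FPKM in bHLH6-OV roots, 0.745, 0.616 and 0.807 in spx4 roots, 1.57, 1.34 and 1.65 in WT low Pi roots and 0.692, 0.693 and 0.872 in WT high Pi roots. WT low Pi roots were again higher, 2.02-fold (log2 fold change 0.53 with SE 0.09, limma adjusted p = 0.00139), and bHLH6-OV roots lay above WT without a call (log2 fold change 0.21 with SE 0.09, limma adjusted p = 0.135). In roots KS1 reached the filter only with WT low Pi roots counted, the group where it was highest, so the filter favoured the direction of that call. The bHLH6-OV effect on KS1 differed between roots and shoots (root minus shoot 0.44 with SE 0.12, limma adjusted p = 0.00839), though not with TPM scaling.

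KSL2 (LOC_Os04g52240) and KSL3 (LOC_Os04g52210), kaurene synthase-like copies, flank KS1 in an array of 24.1 kb. KSL2 was a root gene, at 0.732, 0.614 and 3.97 FPKM in bHLH6-OV roots, 0.784, 0.468 and 1.8 in spx4 roots, 3.83, 4.36 and 3.45 in WT low Pi roots and 0.64, 0.686 and 0.985 in WT high Pi roots. WT low Pi roots were 5.03-fold over WT high Pi roots with no overlap (log2 fold change 1.46 with SE 0.36, limma adjusted p = 0.0108), while replicate 3 of bHLH6-OV reached the low Pi range and its partners did not. KSL2 averaged under 0.1 FPKM in shoots and KSL3 under 0.1 over the 12 libraries of either tissue.

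LIS (LOC_Os02g02930, chromosome 2, 1145779 to 1151142), which makes the monoterpene alcohol linalool, was read almost only in shoots. It had 19.9, 9.28 and 13.5 FPKM in bHLH6-OV shoots, 0.298, 6.74 and 10.5 in spx4 shoots, 98.9, 76.3 and 19.7 in WT low Pi shoots and 0.716, 7.63 and 11.3 in WT high Pi shoots. WT low Pi shoots were 9.91-fold over WT high Pi shoots by the ratio of means, and all 3 lay above them (log2 fold change 3.26 with SE 0.91, limma adjusted p = 0.0124), but the call ended without WT low Pi shoot replicate 1 or WT high Pi shoot replicate 1. bHLH6-OV shoots overlapped WT high Pi shoots at 9.28 FPKM in replicate 2, and the comparison did not pass (log2 fold change 1.37 with SE 0.91, limma adjusted p = 0.281). In spx4 shoots it did not pass either (log2 fold change -0.22 with SE 0.91, limma adjusted p = 0.937).

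LOC_Os08g07080, LOC_Os08g07100 and LOC_Os08g07120 form an array of 28.3 kb on chromosome 8 (3960463 to 3988792). Expression of LOC_Os08g07080 in shoots was 399, 333 and 291 FPKM in bHLH6-OV shoots, 7.03, 31.9 and 53.8 in spx4 shoots, 394, 355 and 91 in WT low Pi shoots and 2.68, 6.29 and 31.6 in WT high Pi shoots. All bHLH6-OV and all WT low Pi shoots lay above all WT high Pi shoots. bHLH6-OV was 25.2-fold higher by the ratio of means (log2 fold change 5.15 with SE 0.86, limma adjusted p = 0.00118) and low Pi 20.7-fold higher (log2 fold change 4.62 with SE 0.86, limma adjusted p = 0.00115). These were the largest log2 fold changes of any tested member in the 6 comparisons within a tissue. spx4 shoots overlapped WT high Pi shoots (log2 fold change 1.35 with SE 0.86, limma adjusted p = 0.494). In roots the gene stood at 0.151 ± 0.0879 FPKM in bHLH6-OV and 0.106 ± 0.0502 in WT high Pi (SD, n = 3), and the effects in the 2 tissues differed (root minus shoot -5.09 with SE 0.92, limma adjusted p = 0.000418 for bHLH6-OV and -4.61 with SE 0.92, limma adjusted p = 0.000638 for low Pi).

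Its neighbour LOC_Os08g07100 read 47.3, 31 and 34.1 FPKM in bHLH6-OV shoots, 0.304, 7.45 and 31.3 in spx4 shoots, 109, 63.4 and 20.8 in WT low Pi shoots and 0.384, 3.24 and 24 in WT high Pi shoots. The spread within groups was wide, and WT low Pi replicate 3 lay below WT high Pi replicate 3. Low Pi passed the test narrowly (log2 fold change 3.34 with SE 1.17, limma adjusted p = 0.0352), and the call ended with a pseudocount of 0.1, with no filter, without WT high Pi shoot replicate 1 or 2 and without WT low Pi shoot replicate 1 or 2. bHLH6-OV shoots all lay above WT high Pi shoots, 4.06-fold by the ratio of means, without a call (log2 fold change 2.84 with SE 1.17, limma adjusted p = 0.0881). Without WT high Pi shoot replicate 3 that comparison passed. The last gene of the array, LOC_Os08g07120, had no read in any shoot library and stood in roots at 3.49, 2.6 and 2.45 FPKM in bHLH6-OV roots, 4.18, 3.48 and 1.01 in spx4 roots, 0.493, 2.78 and 1.75 in WT low Pi roots and 2.56, 4.04 and 6.8 in WT high Pi roots. Its root groups overlapped and none passed (low Pi log2 fold change -1.06 with SE 0.41, limma adjusted p = 0.0681), though the low Pi fall passed without WT low Pi root replicate 2. Neighbours in 1 array were thus read in opposite tissues.

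LIS, LOC_Os08g07080 and LOC_Os08g07100 ranked the 3 libraries alike within spx4, within WT low Pi and within WT high Pi shoots, 3 of the 4 shoot groups. In spx4 and WT high Pi shoots replicate 1 was lowest and replicate 3 highest for all 3 genes, and in WT low Pi shoots replicate 1 was highest and replicate 3 lowest. In bHLH6-OV shoots LIS ranked replicate 3 over replicate 2, as LOC_Os08g07100 did, and LOC_Os08g07080 the reverse. The endogenous bHLH6 gene (LOC_Os04g23550) read 9.25, 83.1 and 73.8 FPKM in WT low Pi shoots and 5.21, 5.22 and 5.29 in WT high Pi shoots. Replicate 1 of WT low Pi was thus the lowest of its group in bHLH6 and the highest in these 3 synthases, and the part of library differences in these results was not tested.

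LOC_Os08g04500, the gene that made up most of the shoot family, read 555, 531 and 684 FPKM in bHLH6-OV shoots, 449.7, 403 and 381 in spx4 shoots, 792, 942 and 644 in WT low Pi shoots and 325, 331 and 401 in WT high Pi shoots. These levels rest on 45876 to 106134 reads a group. All bHLH6-OV shoots lay above all WT high Pi shoots, 1.67-fold by the ratio of means (log2 fold change 0.74 with SE 0.16, limma adjusted p = 0.00539). WT low Pi shoots were 2.25-fold higher, again with no overlap (log2 fold change 1.16 with SE 0.16, limma adjusted p = 0.000151), and spx4 overlapped WT (log2 fold change 0.23 with SE 0.16, limma adjusted p = 0.546). The gene held 57.5% of the family's summed FPKM in bHLH6-OV shoots, 84.5% in spx4, 65.7% in WT low Pi and 87.4% in WT high Pi shoots, as means over 3 libraries. LOC_Os08g07080 held 33.4%, 6.30%, 20.7% and 2.95% in the same order of groups.

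**Figure D3:**
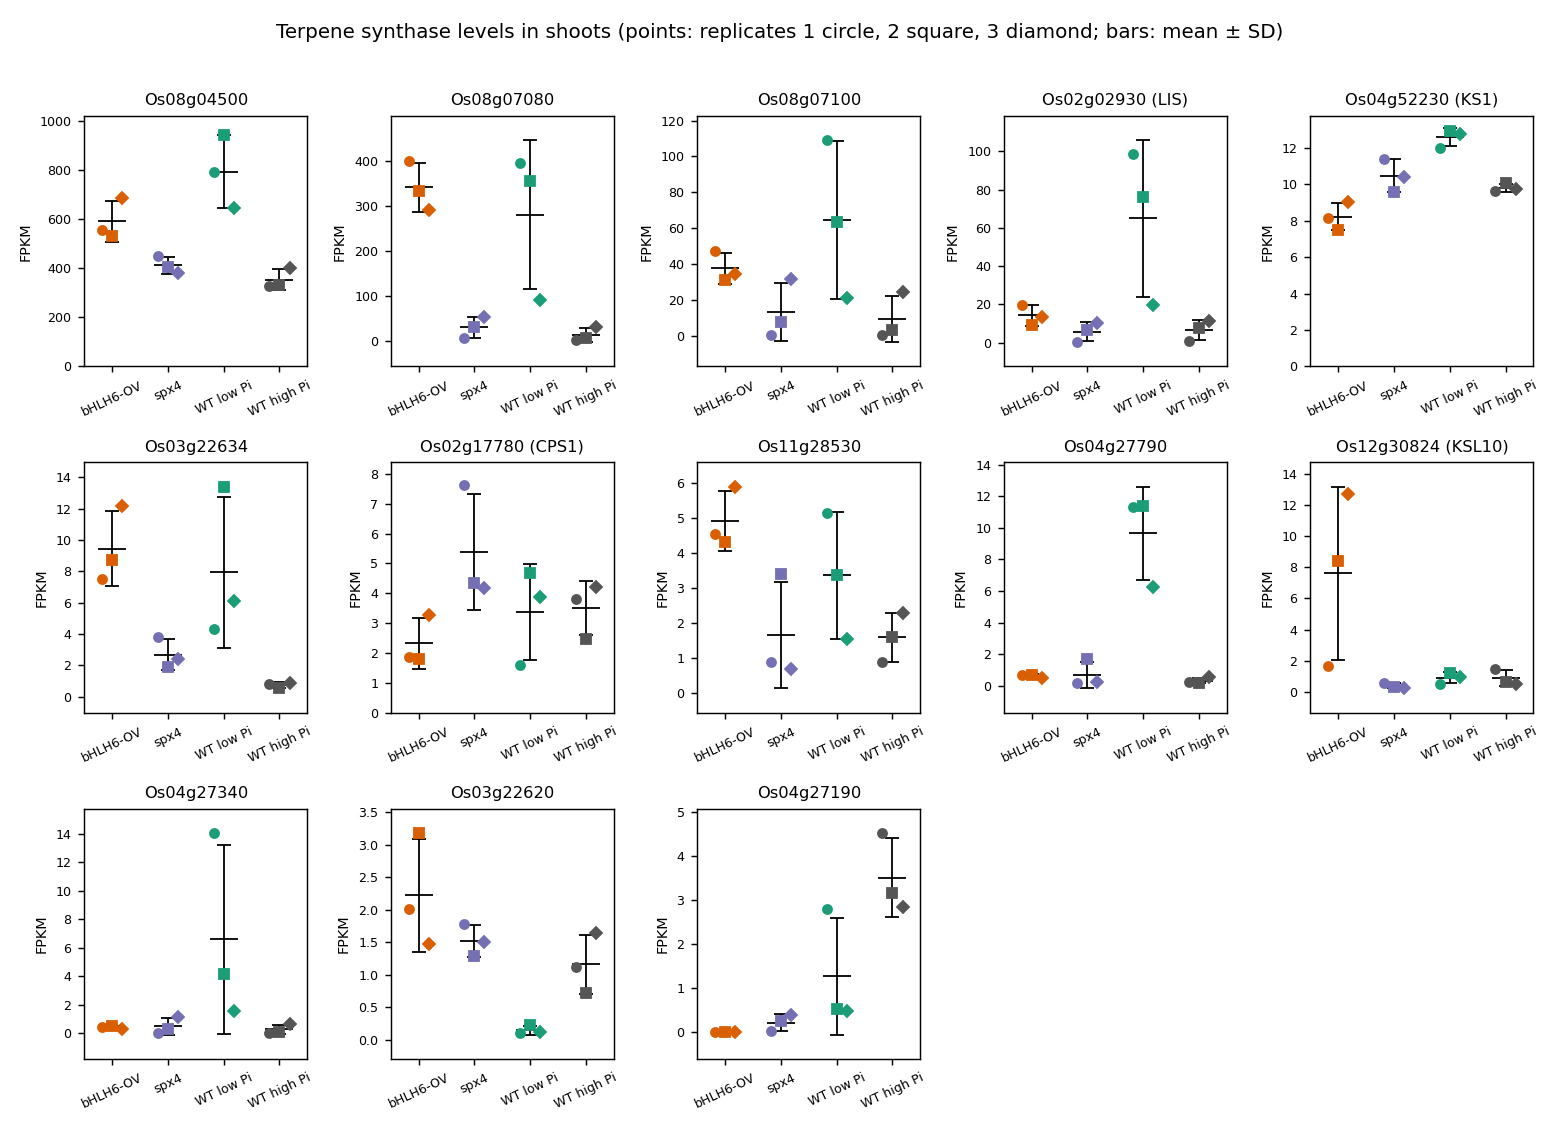
FPKM of the 13 genes tested in shoots, each library as a point (replicate 1 circle, 2 square, 3 diamond) with the mean and SD of 3 libraries, every panel on its own scale. LOC_Os08g07080 is high in bHLH6-OV and WT low Pi, LOC_Os04g27790 and LOC_Os04g27340 in WT low Pi, KSL10 in bHLH6-OV, and LOC_Os04g27190 in WT high Pi.

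LOC_Os03g22634 and LOC_Os03g22620, adjacent metal-binding domain genes within 36.2 kb of chromosome 3 (13035228 to 13071473), moved apart at low Pi. LOC_Os03g22634 read 7.51, 8.72 and 12.1 FPKM in bHLH6-OV shoots, 3.79, 1.91 and 2.39 in spx4 shoots, 4.33, 13.4 and 6.09 in WT low Pi shoots and 0.838, 0.545 and 0.904 in WT high Pi shoots. Every bHLH6-OV, spx4 and WT low Pi shoot lay above every WT high Pi shoot. It was 12.4-fold higher in bHLH6-OV (log2 fold change 2.55 with SE 0.32, limma adjusted p = 0.000178) and 10.4-fold higher at low Pi (log2 fold change 2.22 with SE 0.32, limma adjusted p = 0.000205). In spx4 it was 3.54-fold higher by the ratio of means without passing (log2 fold change 1.04 with SE 0.32, limma adjusted p = 0.14), and passed when spx4 and WT were fitted alone. It averaged at most 0.01 FPKM in every root group, and its effects differed between the tissues (root minus shoot -2.56 with SE 0.34, limma adjusted p = 2.04e-05 for bHLH6-OV and -2.22 with SE 0.34, limma adjusted p = 5.25e-05 for low Pi). LOC_Os03g22620 read 2.0, 3.18 and 1.47 FPKM in bHLH6-OV shoots, 1.78, 1.29 and 1.5 in spx4 shoots, 0.10, 0.23 and 0.124 in WT low Pi shoots and 1.12, 0.726 and 1.63 in WT high Pi shoots. WT low Pi shoots lay below all others, 7.65-fold under WT high Pi (log2 fold change -0.89 with SE 0.20, limma adjusted p = 0.00361). bHLH6-OV shoots did not pass (log2 fold change 0.56 with SE 0.20, limma adjusted p = 0.0511), but did with TPM or median-of-ratios scaling, without the trend, and without WT high Pi shoot replicate 3, bHLH6-OV shoot replicate 3 or WT low Pi shoot replicate 1. LOC_Os03g22620 reached the filter only with bHLH6-OV shoots counted.

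KSL10 (LOC_Os12g30824, chromosome 12, 18509843 to 18528700), a kaurene synthase-like enzyme of phytoalexin synthesis outside the clusters, had 1.68, 8.44 and 12.7 FPKM in bHLH6-OV shoots, 0.572, 0.316 and 0.287 in spx4 shoots, 0.53, 1.24 and 0.948 in WT low Pi shoots and 1.48, 0.662 and 0.536 in WT high Pi shoots. bHLH6-OV shoots lay above all other shoots, 8.54-fold over WT high Pi by the ratio of means (log2 fold change 1.93 with SE 0.47, limma adjusted p = 0.00977), though their replicate 1 was barely above WT high Pi replicate 1. KSL10 reached the filter only with bHLH6-OV shoots counted, so the filter favoured the direction of this call. Neither low Pi (log2 fold change 0.03 with SE 0.47, limma adjusted p = 0.972) nor spx4 (log2 fold change -0.42 with SE 0.47, limma adjusted p = 0.723) passed. The gene averaged under 0.02 FPKM in every root group, and the bHLH6-OV effect differed between tissues (root minus shoot -1.92 with SE 0.50, limma adjusted p = 0.00712).

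LOC_Os11g28530, the leading root gene, read 17.8, 14.4 and 18.2 FPKM in bHLH6-OV roots, 14.4, 16.8 and 16.3 in spx4 roots, 17.3, 24.9 and 23.1 in WT low Pi roots and 11.6, 14.4 and 14.7 in WT high Pi roots. WT low Pi roots lay above all WT high Pi roots, 1.60-fold by the ratio of means (log2 fold change 0.64 with SE 0.14, limma adjusted p = 0.00547). bHLH6-OV (log2 fold change 0.29 with SE 0.14, limma adjusted p = 0.18) and spx4 roots (log2 fold change 0.21 with SE 0.14, limma adjusted p = 0.586) overlapped WT. In shoots it read 4.53, 4.3 and 5.89 FPKM in bHLH6-OV shoots, 0.876, 3.39 and 0.667 in spx4 shoots, 5.15, 3.38 and 1.54 in WT low Pi shoots and 0.887, 1.6 and 2.29 in WT high Pi shoots. bHLH6-OV shoots were 3.08-fold over WT high Pi shoots with no overlap (log2 fold change 1.21 with SE 0.39, limma adjusted p = 0.0346), and that call was lost with no filter and without WT high Pi shoot replicate 1 or 2 or bHLH6-OV shoot replicate 1, 2 or 3. Its share of the family's summed FPKM in roots was 38.9% in bHLH6-OV, 39.8% in spx4, 25.8% in WT low Pi and 25.9% in WT high Pi.

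In the array of 13 genes on chromosome 4 LOC_Os04g27190 (16057927 to 16068256) was called lower in bHLH6-OV roots and in the shoots of all 3 comparisons, where it reached the filter only with WT high Pi shoots counted. Of the 13 genes 3 were tested in roots, 3 in shoots and 4 had no read in any library. The root levels of LOC_Os04g27190 were 1.47, 1.18 and 1.49 FPKM in bHLH6-OV roots, 9.45, 7.63 and 7.84 in spx4 roots, 24.6, 13.3 and 13.4 in WT low Pi roots and 12.8, 10.3 and 9.57 in WT high Pi roots. bHLH6-OV roots were 7.90-fold below WT high Pi roots and below every other root library (log2 fold change -2.31 with SE 0.20, limma adjusted p = 2.14e-05). WT low Pi roots lay above WT high Pi roots without a call (log2 fold change 0.56 with SE 0.20, limma adjusted p = 0.051), and were called without WT low Pi root replicate 2 or 3. The spx4 roots lay just below WT high Pi roots without a call (log2 fold change -0.35 with SE 0.20, limma adjusted p = 0.506). In shoots it read 0, 0.0142 and 0 FPKM in bHLH6-OV shoots, 0.0218, 0.25 and 0.39 in spx4 shoots, 2.79, 0.528 and 0.486 in WT low Pi shoots and 4.52, 3.17 and 2.83 in WT high Pi shoots. Each WT high Pi shoot lay above every library of the other groups, WT low Pi replicate 1 coming nearest. In bHLH6-OV shoots 1 read was found over 3 libraries, against 712 in WT high Pi shoots (log2 fold change -2.15 with SE 0.31, limma adjusted p = 0.000435). spx4 shoots were 15.9-fold lower (log2 fold change -1.88 with SE 0.31, limma adjusted p = 0.00678), and WT low Pi shoots 2.77-fold lower (log2 fold change -1.12 with SE 0.31, limma adjusted p = 0.0111), a call that ended when low and high Pi were fitted alone. The low Pi effect differed between roots and shoots (root minus shoot 1.68 with SE 0.38, limma adjusted p = 0.002), as did that of spx4 (1.53 with SE 0.38, limma adjusted p = 0.0454), though the spx4 difference passed in only 1 of the 12 fits that each left out a library.

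LOC_Os04g26960 (15943440 to 15948394), the first gene of the array, was the 1 member called in spx4 roots. It read 6.98, 9.9 and 7.89 FPKM in bHLH6-OV roots, 1.17, 1.07 and 1.38 in spx4 roots, 14.8, 13.3 and 12.2 in WT low Pi roots and 8.17, 11.4 and 12.7 in WT high Pi roots. All spx4 roots lay far below all other roots, 8.93-fold under WT high Pi (log2 fold change -2.40 with SE 0.15, limma adjusted p = 1.44e-06). bHLH6-OV (log2 fold change -0.34 with SE 0.15, limma adjusted p = 0.148) and low Pi (log2 fold change 0.31 with SE 0.15, limma adjusted p = 0.145) did not pass. Across the first 20 Mb of chromosome 4, where this array lies, 14.9% of the genes tested were called in spx4 roots and 12.4% in spx4 shoots, against 2.14% and 1.87% elsewhere in the genome. LOC_Os04g27070 (16007286 to 16011934), the next tested gene, was not called in spx4 roots (log2 fold change -0.27 with SE 0.22, limma adjusted p = 0.69). It read 2.34, 1.18 and 2.04 FPKM in bHLH6-OV roots, 1.86, 2.64 and 1.14 in spx4 roots, 3.68, 5.51 and 5.37 in WT low Pi roots and 1.82, 2.72 and 2.72 in WT high Pi roots. WT low Pi roots were 2.00-fold higher with no overlap (log2 fold change 0.77 with SE 0.22, limma adjusted p = 0.0205), a call that ended without WT high Pi root replicate 1 or WT low Pi root replicate 2 or 3.

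Further along the array LOC_Os04g27340 (16151639 to 16162828) and LOC_Os04g27790 (16419959 to 16424898, its last gene) were read mainly in WT low Pi shoots. LOC_Os04g27790 read 0.69, 0.706 and 0.505 FPKM in bHLH6-OV shoots, 0.169, 1.66 and 0.212 in spx4 shoots, 11.3, 11.4 and 6.25 in WT low Pi shoots and 0.235, 0.196 and 0.529 in WT high Pi shoots. All WT low Pi shoots lay above every other shoot library, 30.2-fold over WT high Pi (log2 fold change 2.98 with SE 0.30, limma adjusted p = 1.55e-05). LOC_Os04g27340 read 0.407, 0.519 and 0.27 FPKM in bHLH6-OV shoots, 0, 0.305 and 1.13 in spx4 shoots, 14.1, 4.13 and 1.53 in WT low Pi shoots and 0, 0.105 and 0.642 in WT high Pi shoots. WT low Pi shoots again lay above the rest, 26.4-fold over WT high Pi by the ratio of means, with replicate 1 well above its partners (log2 fold change 2.25 with SE 0.52, limma adjusted p = 0.00415). Both genes passed the filter only with WT low Pi shoots counted, which favoured the direction of their low Pi calls. Neither was called in bHLH6-OV or spx4 shoots. In roots LOC_Os04g27340 averaged 1.06 ± 0.122 FPKM at low Pi and 0.366 ± 0.15 at high Pi (SD, n = 3), below the filter. The 5 tested genes of this array thus fell into root genes (LOC_Os04g26960, LOC_Os04g27070 and, in part, LOC_Os04g27190) and genes highest in WT low Pi shoots.

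Without WT low Pi shoot replicate 1, the library unlike its partners, 7 of the 10 members called at low Pi in shoots kept their call, in limma. Log2 fold changes of 4.24, 2.85, 2.52, 1.15 and 0.36 remained for LOC_Os08g07080, LOC_Os04g27790, LOC_Os03g22634, LOC_Os08g04500 and KS1 (LOC_Os04g52230), with limma adjusted p = 0.0112, 4.61e-05, 5.62e-05, 0.000276 and 0.0075. The falls of LOC_Os03g22620 and LOC_Os04g27190 stood at -0.86 and -1.56 (limma adjusted p = 0.00912 and 3.59e-05). LIS (LOC_Os02g02930) and LOC_Os08g07100 lost their calls, at 2.82 and 2.83 (limma adjusted p = 0.0702 and 0.146), and LOC_Os04g27340 no longer reached the mean of 1 FPKM. In bHLH6-OV shoots the 6 calls stood without that library and 2 joined them, KS1 and LOC_Os03g22620, and in spx4 shoots LOC_Os04g27190 stayed the 1 call.

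**Figure D4:**
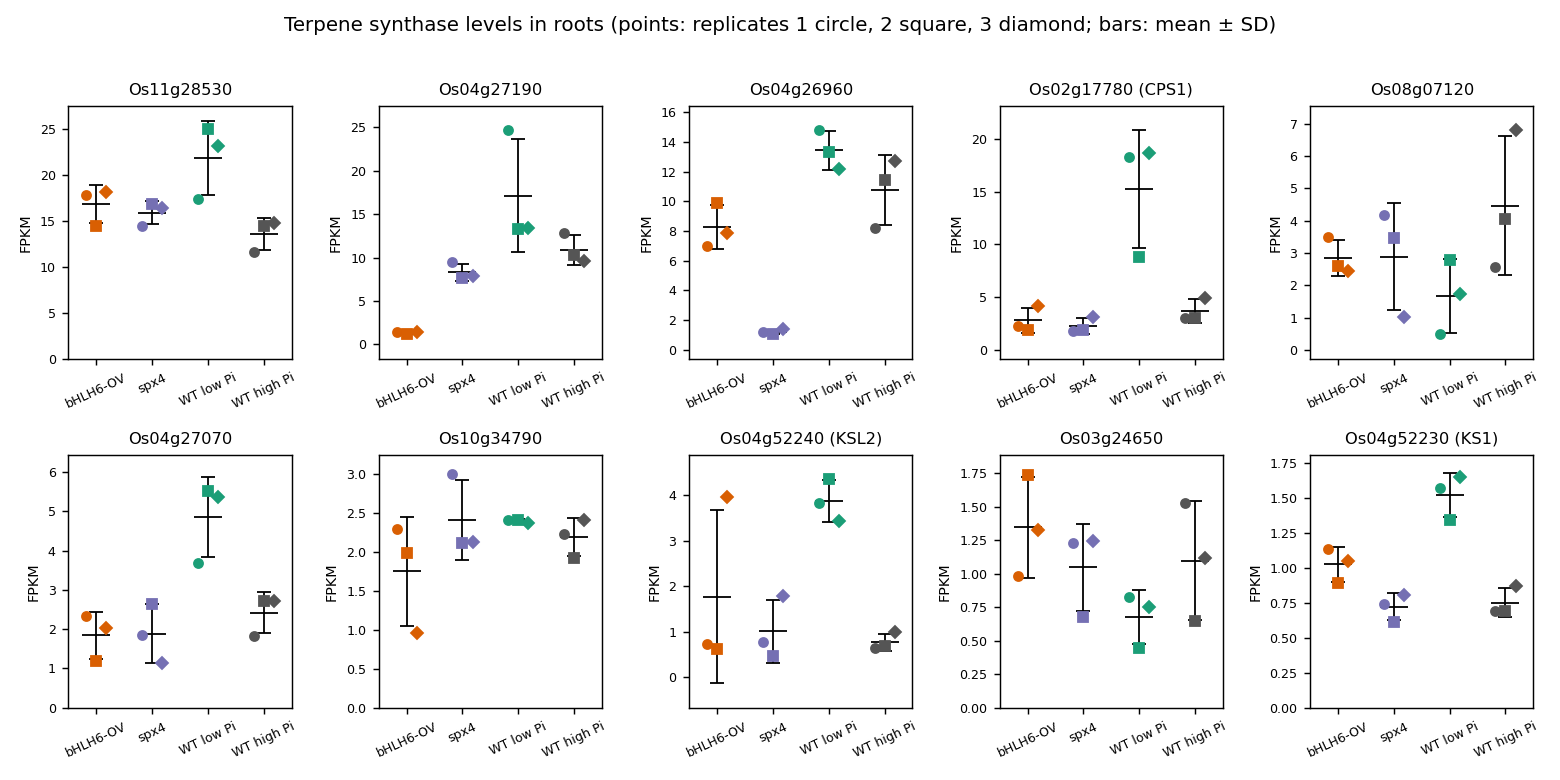
FPKM of the 10 genes tested in roots, each library as a point (replicate 1 circle, 2 square, 3 diamond) with the mean and SD of 3 libraries, every panel on its own scale. CPS1, KSL2, LOC_Os04g27070 and KS1 are highest in WT low Pi, LOC_Os04g27190 is lowest in bHLH6-OV and LOC_Os04g26960 in spx4.

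With the filter at a mean of 1 FPKM no comparison within a tissue called LOC_Os10g34790 or LOC_Os03g24650. LOC_Os10g34790 (chromosome 10, 18573539 to 18575856) read 2.3, 1.99 and 0.964 FPKM in bHLH6-OV roots, 3.01, 2.11 and 2.13 in spx4 roots, 2.42, 2.41 and 2.38 in WT low Pi roots and 2.23, 1.93 and 2.42 in WT high Pi roots. LOC_Os03g24650 (chromosome 3, 14043237 to 14044846) read 0.979, 1.73 and 1.32 FPKM in bHLH6-OV roots, 1.23, 0.674 and 1.24 in spx4 roots, 0.825, 0.445 and 0.751 in WT low Pi roots and 1.53, 0.645 and 1.12 in WT high Pi roots. For both genes each of the other root groups overlapped WT high Pi roots. In shoots, below that filter, LOC_Os10g34790 averaged 1.19 ± 0.465 FPKM in bHLH6-OV, 1.11 ± 0.704 in spx4, 0.676 ± 0.266 in WT low Pi and 0.291 ± 0.055 in WT high Pi (SD, n = 3). With the filter lowered to a mean of 0.1 FPKM it was called higher in bHLH6-OV shoots (log2 fold change 0.74 with SE 0.22, limma adjusted p = 0.03). The call also stood with no filter (limma adjusted p = 0.0467). Its bHLH6-OV effect differed between tissues (root minus shoot -0.99 with SE 0.29, limma adjusted p = 0.0167).

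Of the 29 genes tested in neither tissue, 19 had some reads and 4 reached a mean of 1 FPKM in a group. LOC_Os02g36285 (chromosome 2, 21911434 to 21912631), which lies 12.2 kb past the phytocassane cluster gene LOC_Os02g36264, read 0.436, 1.06 and 1.73 FPKM in bHLH6-OV shoots and had no read in any of the other 21 libraries. Its 41 reads put it at least 13.5-fold above WT high Pi shoots, with 3 reads allowed to those 3 libraries together. LOC_Os07g11790 (chromosome 7, 6515622 to 6522044) read 0.0173, 1.54 and 3.21 FPKM in bHLH6-OV shoots and likewise had none elsewhere. With 207 reads it was at least 71.6-fold higher. Since bHLH6-OV shoots alone held reads of both genes, a filter that lets them pass fixes their direction, and no test is given for them. Replicate 1 was the lowest of the bHLH6-OV shoots for both, as it was for KSL10.

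LOC_Os05g24520 (chromosome 5, 14147401 to 14152010) read 0.35, 0.482 and 0.519 FPKM in bHLH6-OV shoots, 0.956, 0.367 and 0.895 in spx4 shoots, 1.37, 1.33 and 1.04 in WT low Pi shoots and 1.24, 1.16 and 0.649 in WT high Pi shoots, and had no read in roots. Its neighbour LOC_Os05g24500, which overlaps the same RefSeq gene, averaged 0.47 ± 0.0971, 0.414 ± 0.147, 0.809 ± 0.16 and 0.819 ± 0.0465 FPKM in these groups (SD, n = 3). With the filter lowered to a mean of 0.1 FPKM, though not with no filter, both were called lower in bHLH6-OV shoots (log2 fold change -0.46 and -0.31, limma adjusted p = 0.0492 and 0.0458). LOC_Os02g26014 (chromosome 2, 15263803 to 15283398) read 0.613, 0.688 and 0.689 FPKM in bHLH6-OV roots, 0.628, 0.588 and 1.13 in spx4 roots, 1.76, 0.813 and 1.11 in WT low Pi roots and 0.608, 0.498 and 0.451 in WT high Pi roots. WT low Pi roots lay above WT high Pi roots, 2.37-fold by the ratio of means, and passed with that filter (log2 fold change 0.53, limma adjusted p = 0.0212) and with none. The other 25 untested genes averaged under 1 FPKM in every group.

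Genes of prenyl diphosphate supply and of other terpene branches were found by words in their descriptions. LOC_Os01g58790, LOC_Os07g36190 and LOC_Os05g34180 were instead taken into the MEP list below by locus, from published assignments. The plastid methylerythritol phosphate (MEP) pathway and the cytosolic mevalonate pathway make the isoprene units, and prenyl diphosphate synthases join them. In bHLH6-OV shoots 3 of 11 tested MEP genes were higher and 4 lower, and 2 of 11 prenyl diphosphate synthases were higher and 4 lower, beside 14.0% higher and 17.3% lower over all genes. Of the 4 mevalonate genes tested there 0 were called in limma, and 0 at an unadjusted p under 0.05. The median log2 fold changes were -0.32 for the MEP genes, -0.19 for the prenyl diphosphate synthases and -0.07 for the mevalonate genes. The MEP gene that rose most was the deoxyxylulose-5-phosphate synthase LOC_Os07g09190, at 18.7 ± 6.74 FPKM in bHLH6-OV shoots and 0.694 ± 0.491 in WT high Pi shoots (SD, n = 3, log2 fold change 3.53 with SE 0.30, limma adjusted p = 1.23e-05). It was also higher in WT low Pi shoots, at 7.82 ± 2.35 FPKM (SD, n = 3, log2 fold change 2.39 with SE 0.30, limma adjusted p = 8.23e-05). Its copy LOC_Os05g33840 was the more abundant, with 164 ± 66.8 FPKM in bHLH6-OV shoots and 214 ± 42.9 in WT high Pi shoots (SD, n = 3), and was called in neither shoot comparison.

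In WT low Pi shoots 2 of 11 MEP genes were higher and 2 lower, 2 of 4 mevalonate genes were higher, and 3 of 11 prenyl diphosphate synthases were higher and 1 lower (median log2 fold changes -0.09, 0.21 and 0.19), beside 22.2% higher and 26.0% lower over all genes. The hydroxymethylglutaryl-CoA reductase LOC_Os09g31970, the rate-limiting step of the mevalonate pathway, had 7.95 ± 2.26 FPKM in WT low Pi shoots and 1.16 ± 0.278 in WT high Pi shoots (SD, n = 3, log2 fold change 2.03 with SE 0.19, limma adjusted p = 9.47e-06). The polyprenyl synthetase LOC_Os01g14630 had 15.6 ± 7.54 FPKM in WT low Pi shoots and 3.01 ± 1.58 in WT high Pi shoots (SD, n = 3, log2 fold change 2.02 with SE 0.47, limma adjusted p = 0.00453). In WT low Pi roots 4 of 13 MEP genes were higher and 3 lower, 2 of 5 mevalonate genes were higher and 4 of 9 prenyl diphosphate synthases were higher (median log2 fold changes 0.03, 0.32 and 0.20), beside 15.3% higher and 16.1% lower over all genes. In bHLH6-OV roots 3 of 13 MEP genes were higher, 2 of 5 mevalonate genes were lower and 0 of 9 prenyl diphosphate synthases were called in limma, with 1 higher and 1 lower at an unadjusted p under 0.05, beside 7.62% higher and 10.4% lower over all genes. The reductase LOC_Os08g40180, a copy of LOC_Os09g31970 by its description, was lower there, with 14.1 ± 2.72 FPKM for bHLH6-OV against 26.7 ± 1.63 for WT high Pi (SD, n = 3, log2 fold change -0.88 with SE 0.18, limma adjusted p = 0.00728). At low Pi it was higher, at 54.7 ± 5.61 FPKM in WT low Pi roots (SD, n = 3, log2 fold change 1.00 with SE 0.18, limma adjusted p = 0.00183). In spx4 0 tested genes of these 3 lists were called in limma in either tissue, and 1 gene in roots and 4 in shoots had an unadjusted p under 0.05. Few genes were called there at all, 2.46% of all genes in spx4 roots and 2.14% in spx4 shoots. Among 18 genes of squalene, phytoene and triterpene enzymes, 2 of 14 tested were higher and 3 lower in bHLH6-OV shoots, and 4 were higher and 6 lower in WT low Pi shoots. Over all genes 14.0% were higher and 17.3% lower in bHLH6-OV shoots, and 22.2% and 26.0% in WT low Pi shoots. In roots 0 of 12 were higher and 1 lower in bHLH6-OV in limma, with 1 higher at an unadjusted p under 0.05, and 3 were higher and 1 lower at low Pi. The shares over all genes were 7.62% higher and 10.4% lower in bHLH6-OV roots, and 15.3% and 16.1% at low Pi. With 4 to 14 genes tested in each, the counts of these 4 lists are a description only.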

How the data were processed

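RNA from roots and shoots of rice seedlings was sequenced in 24 libraries, 3 per group. The authors deposited FPKM values per gene for 57668 features, and per the submitters' processing notes HISAT2, StringTie, featureCounts 1.5.0-p3 and DESeq2 were used. The genome build and the strand setting are not given in the sources used here, so reads of overlapping genes, and of near-identical neighbours in an array, cannot be told apart. The deposited FPKM times gene length gave whole reads for 100% of values (tolerance 0.01 reads), from which the read numbers come. The divisor of the authors' FPKM was 1.153 to 1.299 times the reads in genes in roots and 0.733 to 1.039 times in shoots, so fold changes depend on that scaling.

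FPKM plus a pseudocount of 1 was taken to log2 and fitted with limma 3.58.1 (R 4.3.3), robust and with a trend, over all 4 groups of a tissue or all 8, for genes whose FPKM averaged 1 or more there. P-values were adjusted over all genes of a fit after Benjamini and Hochberg. Fold changes on this scale understate those of low genes, and ratios of mean FPKM are given beside them. The fit was tested on simulated counts with the same dispersion for every gene. That test does not measure error rates at the spread of these libraries. Figures and tables were made with Python 3.11.15, pandas 2.3.3, numpy 2.4.6 and matplotlib 3.10.9.

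The members, the pathway words and loci, and the marker lists were chosen with earlier results of these data known. Tested members called in a comparison were described singly, other tested members by level, and untested members by counts unless a group mean reached 1 FPKM. Replicate numbers are in the sample titles and were not taken as pairs in the main fits. In none of the pairs of groups compared did all correlations of same-numbered deviations pass 0.1. They did between bHLH6-OV and spx4 roots (0.227, 0.291 and 0.477), which are not compared with each other but share the root fit. Between bHLH6-OV and WT high Pi they were 0.154, 0.158 and 0.075 in roots, where unlike numbers gave at most -0.029. In shoots they were 0.0862, 0.163 and 0.21, where unlike numbers gave at most 0.0656. In the spx4 and low Pi comparisons within a tissue they did not all lie above those of unlike numbers. Between roots and shoots they were 0.0357, 0.0492 and 0.0252 in WT high Pi, where unlike numbers gave at most 0.0118. In bHLH6-OV they were 0.0134, 0.031 and 0.0131 (unlike at most 0.0119), and in spx4 0.135, 0.0741 and 0.102 (unlike at most 0.0373). In WT low Pi they did not all lie above unlike numbers. A fit with the replicate number as a block within each tissue is given below. It does not pair roots with shoots, so the tests between tissues took them as unpaired. RefSeq symbols (assembly ASM3414082v1) were tied to 6 members by position, after a shift estimated from matching gene ends within 300000 bases. The shift was less clear for KSL10 than for the other 5.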

Additional observations from a re-analysis of the deposited data

Results flagged for a closer look

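The effect of a line or of low Pi differed between roots and shoots in 18 cases, by limma's test of the difference over all 24 libraries. Each effect was tested in the same 16 members, so a gene can count more than once. The cases were 6 for bHLH6-OV, 2 for spx4 and 10 for low Pi. Over all genes 29.4%, 1.83% and 37.9% differed in the same order. Each value is the log2 fold change in roots minus that in shoots.

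For bHLH6-OV the difference was -5.09 with SE 0.92, limma adjusted p = 0.000418 for LOC_Os08g07080 and -2.56 with SE 0.34, limma adjusted p = 2.04e-05 for LOC_Os03g22634. It was -1.92 with SE 0.50, limma adjusted p = 0.00712 for KSL10 (LOC_Os12g30824), -0.99 with SE 0.29, limma adjusted p = 0.0167 for LOC_Os10g34790 and -0.88 with SE 0.16, limma adjusted p = 0.000494 for LOC_Os08g04500. In these 5 genes the bHLH6-OV effect was the greater in shoots. KS1 (LOC_Os04g52230) differed the other way, by 0.44 with SE 0.12, limma adjusted p = 0.00839, and no longer passed with TPM scaling.

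For spx4 LOC_Os04g26960, which had no read in WT shoots, differed by -2.41 with SE 0.17, limma adjusted p = 1.2e-08. LOC_Os04g27190 differed by 1.53 with SE 0.38, limma adjusted p = 0.0454, being lower in spx4 shoots and without a call in spx4 roots.

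For low Pi the effect was the greater in shoots for LOC_Os08g07080 (-4.61 with SE 0.92, limma adjusted p = 0.000638), LOC_Os08g07100 (-3.37 with SE 1.25, limma adjusted p = 0.0402), LIS or LOC_Os02g02930 (-3.04 with SE 0.98, limma adjusted p = 0.0194) and LOC_Os04g27790 (-3.004 with SE 0.32, limma adjusted p = 7.46e-07). The same held for LOC_Os03g22634 (-2.22 with SE 0.34, limma adjusted p = 5.25e-05), LOC_Os04g27340 (-1.65 with SE 0.62, limma adjusted p = 0.0429) and LOC_Os08g04500 (-1.30 with SE 0.16, limma adjusted p = 4.68e-06). It was more positive in roots for CPS1 or LOC_Os02g17780 (1.86 with SE 0.46, limma adjusted p = 0.00347), LOC_Os04g27190 (1.68 with SE 0.38, limma adjusted p = 0.002) and LOC_Os04g27070 (0.77 with SE 0.24, limma adjusted p = 0.0163). Genes almost without reads in 1 tissue, such as LOC_Os08g07080, LOC_Os03g22634 and KSL10 in roots, could move little there on this scale. KSL10 reached the filter only with bHLH6-OV shoots counted, and LOC_Os04g27340 and LOC_Os04g27790 only with WT low Pi shoots. That filter favoured the sign of their differences. Some differences rested on few libraries. That of LOC_Os04g27340 passed in 2 of 11 fits that each left out a library, that of LOC_Os08g07100 in 2 of 12 and the spx4 difference of LOC_Os04g27190 in 1 of 12. The low Pi difference of LIS ended without WT high Pi or WT low Pi shoot replicate 1 and with a pseudocount of 0.1, and that of LOC_Os04g27070 without WT high Pi root replicate 1 and with that pseudocount.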

How the results depend on the processing

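Of the 24 calls of members within a tissue none changed sign under any alternative run, and 19 held in every alternative in which the gene was tested. Members called in bHLH6-OV roots numbered 2 with no filter and 2 with a mean of 0.1 FPKM, against 1. In bHLH6-OV shoots 11 were called with a mean of 0.1 FPKM, against 6, since more genes were tested, 2 of them with reads in no other group, and between roots and shoots 23 with no filter and 20 with 0.1, against 13. The bHLH6-OV effect differed between tissues for 10 members with 0.1, against 6, and the spx4 effect for 1 with no filter or with TPM, against 2. With only spx4 and WT in the fit 778 genes and 2 members were called in spx4 shoots, against 428 and 1, and 735 genes differed between tissues, against 420. Without WT low Pi shoot replicate 1, an alternative chosen after seeing the data, these gene counts were 990 and 741, with 3 members differing between tissues for spx4, and the cause was not tested.

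Leaving out 1 library at a time, members called ranged from 1 to 2 in bHLH6-OV roots, 1 to 1 in spx4 roots, 4 to 5 at low Pi in roots, 4 to 8 in bHLH6-OV shoots, 0 to 1 in spx4 shoots, 7 to 11 at low Pi in shoots and 12 to 13 between roots and shoots. Members whose effect differed between tissues ranged from 5 to 7 for bHLH6-OV, 1 to 2 for spx4 and 6 to 10 for low Pi. All genes called ranged from 2156 to 3408 in bHLH6-OV roots, 331 to 542 in spx4 roots, 4919 to 7377 at low Pi in roots, 4401 to 5189 in bHLH6-OV shoots, 254 to 414 in spx4 shoots, 7987 to 9462 at low Pi in shoots and 18811 to 18934 between roots and shoots. For the differences between tissues they ranged from 5416 to 6521 for bHLH6-OV, 286 to 549 for spx4 and 7588 to 8719 for low Pi.

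TPM scaling moved the share of higher calls over all genes to 75.4% in bHLH6-OV shoots, against 44.7% as deposited, to 58.3% at low Pi in shoots, against 46.1%, to 22.8% in spx4 shoots, against 33.9%, and to 68% between roots and shoots, against 53.8%. It put the median log2 fold change of all genes at 0.152 in bHLH6-OV shoots and 0.556 between roots and shoots, against -0.0481 and 0.104. With the replicate block 6 members were called at low Pi in roots, against 5, with LOC_Os04g27190 added. With it 9 low Pi effects differed between tissues, against 10, and the other member counts did not move. Reads limit the members near 1 FPKM, and KS1 in roots falls under the filter without some libraries.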
